A study of Mus musculus with 52 samples.

Results

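Hmox1, Nqo1, Gclm, Gclc, Srxn1, Txnrd1, Osgin1, Mt1, Mt2 and Txnip, antioxidant and metallothionein genes of the mouse, were followed through cultured astrocytes and epileptic brain. The 10 genes were chosen by name, as were the 16 gene lists used beside them, with earlier results of these data known. Counts of members or list genes set beside the share of all genes are therefore description only. They are 10 of 56783 distinct gene identifiers in the 4 deposited tables, and each table held all of them. Palmitic acid raised Hmox1, Srxn1, Txnrd1, Nqo1, Gclm and Osgin1 in wild-type astrocytes and in astrocytes without Apoe. Mt1 and Mt2 fell with palmitic acid in wild-type cells and rose with it in the knockout cells. Txnip rose with oleic acid in both. In brain, Mt1 and Mt2 rose with CNO.

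The study sequenced bulk RNA from 52 libraries, 27 of cultured astrocytes and 25 of brain, all labelled strain C57BL/6. Wild-type astrocytes, the support cells of the brain, were left untreated or received conditioned medium of neurons, conditioned medium of APOE KO neurons, oleic acid or palmitic acid. APOE KO astrocytes, which lack the lipid carrier apolipoprotein E, were left untreated or received conditioned medium of neurons, oleic acid or palmitic acid, and each of these 9 culture groups had 3 libraries. The first KA cohort had 3 untreated and 3 KA brain libraries, and the CNO set 3 untreated and 3 CNO brain libraries. The second KA cohort had 3 untreated, 4 KA, 3 APOE knock out with KA and 3 A2aR knock down with KA brain libraries. Doses, times, ages, the brain region, the receptor through which CNO acted, the way A2aR (the adenosine receptor encoded by Adora2a) was knocked down and the source of the cultures are left unstated by the sources used here. All 3 groups of the second cohort other than the untreated group had received KA, so the Apoe knockout and the knockdown are compared with KA brain and share those 4 libraries. Titles of the libraries given neuronal medium also contain KA, and the word mix appears without explanation in the titles of knockout libraries untreated 3 and palmitic acid 3.

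Most of these genes belong to the oxidative stress response run by the transcription factor NRF2 (gene Nfe2l2). KEAP1 marks NRF2 for degradation until oxidants or electrophiles modify KEAP1, and NRF2 then binds antioxidant response elements in its target genes. Metallothioneins are small cysteine-rich proteins that bind zinc and copper, are abundant in astrocytes and are induced through metal response elements by the zinc sensor MTF1. Txnip encodes an arrestin-domain protein that binds thioredoxin and limits glucose uptake, and glucose-sensing Mondo factors drive it from carbohydrate response elements.

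The promoters show that these regulatory letters are shared unevenly among the genes, so the windows of 5 members are printed before their levels. RefSeq windows on GRCm38.p6, each of 300 bases from 250 before the transcription start to 50 after it, were found for 8 of the 10 members, in 10 windows. The motifs searched on both strands were the antioxidant response element TGACNNNGC, the metal response elements TGCACNC and TGCGCNC, and the carbohydrate response element, formed by a pair of CACGNG boxes set apart by NNNNN. Of all 32851 RefSeq mouse promoter windows, 12.4% held the first, 25.7% either form of the second and 0.0487% (16 windows) the third. Capitals mark the matches in the sequences, which read 5′ to 3′ on the plus strand, the strand of these genes, and in which no matches overlap. They lie at chr2:152105274-152105573 (Srxn1), chr10:82858956-82859255 (the second Txnrd1 window), chr8:94178839-94179138 (Mt1), chr8:94172368-94172667 (Mt2) and chr3:96557707-96558006 (Txnip).
Srxn1: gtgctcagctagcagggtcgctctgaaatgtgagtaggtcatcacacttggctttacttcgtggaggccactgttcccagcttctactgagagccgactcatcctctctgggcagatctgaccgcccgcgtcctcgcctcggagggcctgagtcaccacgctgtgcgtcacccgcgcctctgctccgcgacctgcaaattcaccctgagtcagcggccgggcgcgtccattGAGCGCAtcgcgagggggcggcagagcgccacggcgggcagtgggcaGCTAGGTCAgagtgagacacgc
Txnrd1: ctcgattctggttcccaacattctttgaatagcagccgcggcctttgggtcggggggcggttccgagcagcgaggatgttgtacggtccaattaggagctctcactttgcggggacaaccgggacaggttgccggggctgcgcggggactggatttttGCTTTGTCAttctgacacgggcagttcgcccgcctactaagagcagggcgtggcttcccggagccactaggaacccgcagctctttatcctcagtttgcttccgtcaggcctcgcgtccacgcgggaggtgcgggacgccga
Mt1: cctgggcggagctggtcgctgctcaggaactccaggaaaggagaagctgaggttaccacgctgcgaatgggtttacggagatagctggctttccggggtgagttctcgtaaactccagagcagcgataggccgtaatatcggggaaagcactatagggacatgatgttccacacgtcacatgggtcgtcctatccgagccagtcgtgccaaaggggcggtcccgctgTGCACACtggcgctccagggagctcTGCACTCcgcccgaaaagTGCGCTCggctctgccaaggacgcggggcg
Mt2: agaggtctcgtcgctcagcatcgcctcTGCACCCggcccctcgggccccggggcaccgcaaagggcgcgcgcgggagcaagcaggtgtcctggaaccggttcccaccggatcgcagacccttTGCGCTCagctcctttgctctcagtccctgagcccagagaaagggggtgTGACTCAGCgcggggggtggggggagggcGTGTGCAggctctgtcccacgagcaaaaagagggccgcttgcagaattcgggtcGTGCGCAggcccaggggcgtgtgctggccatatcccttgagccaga
Txnip: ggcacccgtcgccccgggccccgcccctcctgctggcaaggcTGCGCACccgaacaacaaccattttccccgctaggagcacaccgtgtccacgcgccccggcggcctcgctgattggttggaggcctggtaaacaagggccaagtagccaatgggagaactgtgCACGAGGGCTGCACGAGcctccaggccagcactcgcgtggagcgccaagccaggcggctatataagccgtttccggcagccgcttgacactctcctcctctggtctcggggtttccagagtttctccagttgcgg

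Mt1 held 3 metal response elements and no antioxidant response element in its window, and Mt2 held 4 metal response elements and 1 antioxidant response element. Srxn1 held 1 of each, and its antioxidant match, GCTAGGTCA, began 29 bases after the start. The second Txnrd1 window held 1 antioxidant match, GCTTTGTCA, which began 92 bases before the start, at -92. Txnip held 1 metal response element and the carbohydrate match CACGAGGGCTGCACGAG, at -85, a motif that 16 windows held in all. The Gclm window, not printed, held 1 antioxidant match and 3 metal matches, of which 1 metal match overlapped the antioxidant match. The Nqo1 and Osgin1 windows and the other Txnrd1 windows held none of these letters. A match is only a description of the letters.

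In GENCODE M21 on mm10, Mt2 (8:94172664-94173568) and Mt1 (8:94179082-94180327) lie on the same strand with 5513 bases between them. Hmox1 (8:75093621-75100589), Nqo1 (8:107388225-107403206, minus strand) and Osgin1 (8:119434124-119446256) are elsewhere on the same chromosome. Gclm lies at 3:122245557-122270732, Gclc at 9:77754535-77794485, Srxn1 at 2:152105516-152111376, Txnrd1 at 10:82833951-82897712 and Txnip at 3:96557957-96561883. Mt1 and Mt2 are related in sequence, and the sources used here do not give how reads matching more than 1 gene were assigned.

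Levels are TPM, a transcript abundance that is per length, and they were compared only within a table. The second KA cohort also had counts, 68760648 to 76643829 per library, in which the members had 12 to 12904 counts, and the depth of the other tables is unknown. Nothing in the labels says whether each library is its own animal or culture. The p-values therefore reflect only library-to-library spread, which may be technical. Apoe was 4682 ± 405 TPM (SD, n = 3) in untreated wild-type astrocytes and at most 114.5 TPM on average in any knockout group. Adora2a was 1.93 ± 0.20 TPM (SD, n = 3) in the brains labelled A2aR knock down and 2.11 ± 0.66 TPM (SD, n = 4) in KA brain, so the knockdown was not seen in this RNA.

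The culture groups differed in the RNA of cell type markers as well as in their treatment. All 9 astrocyte markers were above 0 in every culture group, and their summed TPM was 2130 to 2390.2 in untreated wild-type cells, 1086 to 1118 with oleic acid, 656 to 804 with palmitic acid, 482 to 496 in untreated knockout cells, 1170.3 to 1267 in knockout cells with neuronal medium, 491 to 507 with oleic acid and 69.4 to 86.7 with palmitic acid. Mural and fibroblast markers (9 genes) summed to 7573 to 8279.9 TPM in untreated wild-type cells and 939 to 1058 in knockout cells with palmitic acid. Mitochondrial transcripts made up 5.53% to 6.83% of TPM in untreated wild-type and 6.42% to 6.65% in untreated knockout cultures, 2.96% to 3.98% and 4.04% to 4.53% with oleic acid, and 3.48% to 4.17% and 1.51% to 2.94% with palmitic acid, and their part in the results was not tested. Xist, expressed in female cells, and Ddx3y, in male cells, also moved with the groups. Xist was 30.7 to 36.8 TPM in untreated wild-type cultures, 6.57 to 15.03 with oleic acid and 15.5 to 21.0 with palmitic acid, and 2.79 to 3.81 in untreated knockout cultures, where Ddx3y was 31.3 to 33.5. Ddx3y was 14.9 to 19.1 TPM in untreated wild-type cultures, 0.52 to 1.35 with oleic acid and 3.22 to 4.49 with palmitic acid. Both genes were thus lower with either acid in wild-type cells. Whether the sex mix of the cultures differed was not tested, and it cannot be told apart from treatment. In the second KA cohort Xist was 122 to 145 TPM in the untreated brains and at most 0.31 in the other groups, so sex and KA cannot be told apart there. In bulk RNA, fewer cells of a type and less RNA per cell cannot be told apart.

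Among astrocytes, each gene's change was tested with limma on log2(TPM + 1), a scale that understates changes of low genes, with p-values adjusted over 16161 genes by the Benjamini-Hochberg method and a threshold of 0.05. Palmitic acid passed the test in 9 of the 10 genes in wild-type cells, against 59.8% of all genes tested, and in 9 of the 10 in knockout cells, against 75.3%. Oleic acid passed it in 7 of the 10 in wild-type cells (59.8% of all genes) and in 7 of the 10 in knockout cells (41.8%). The median log2 change of the 10 genes with palmitic acid was 1.20 in wild-type cells, where all tested genes had a median of -0.08, and 0.69 in knockout cells, where all tested genes had a median of -0.47. Rescaling the libraries by the median ratio moved the latter median to -0.08 and the share of called genes that were higher from 26.5% to 47.9%, so changes of single genes in knockout cells with palmitic acid are given on both scales where they differ by over 1.5 times.

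**Figure D1:**
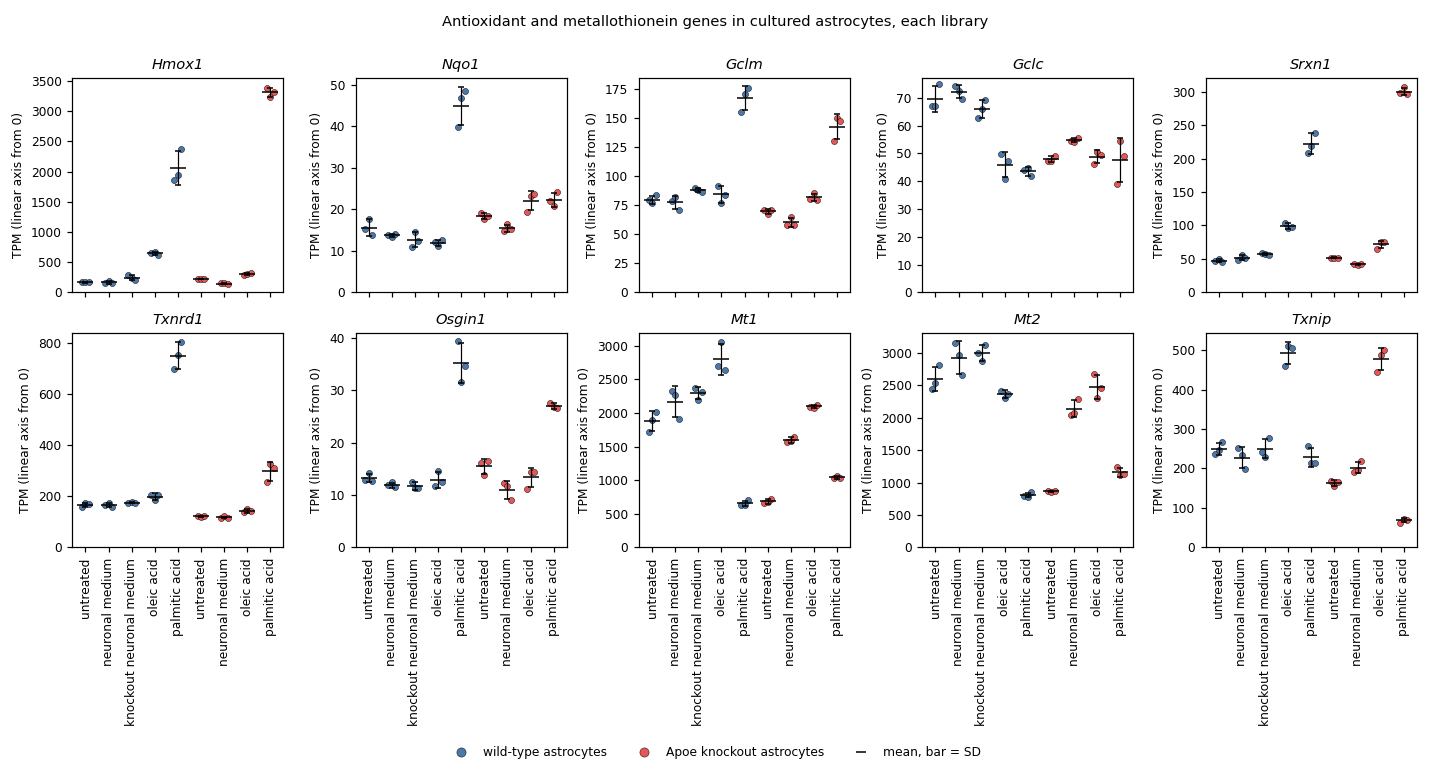
Level of each of the 10 genes in every cultured astrocyte library, in TPM on linear axes that start at 0, with 1 panel per gene, blue points for wild-type and red points for Apoe knockout libraries, a horizontal line at each group's mean and a bar of 1 SD (n = 3). Hmox1, Srxn1 and Txnrd1 are highest in the palmitic acid groups, Txnip in the oleic acid groups, and Mt1 and Mt2 are low in untreated knockout cells and in wild-type cells with palmitic acid.

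Hmox1 encodes heme oxygenase 1, which breaks heme down to biliverdin, iron and carbon monoxide. In wild-type astrocytes its TPM was 164, 174 and 164 untreated, 655, 668 and 619 with oleic acid, and 1856, 1949 and 2371 with palmitic acid. The groups did not overlap, and Hmox1 rose by a log2 of 1.95 ± 0.10 (SE, limma, adjusted p = 8.9e-13) with oleic acid and 3.61 ± 0.10 (limma, adjusted p = 1.8e-17) with palmitic acid, which is 3.87 and 12.3 times the untreated mean. In knockout astrocytes it was 223, 226 and 226 TPM untreated, 281, 301 and 324 with oleic acid, and 3378, 3239.7 and 3314 with palmitic acid. These groups did not overlap either, and the rise with oleic acid was 0.42 ± 0.10 (limma, adjusted p = 0.0022) and that with palmitic acid 3.87 ± 0.10 (limma, adjusted p = 1.4e-18), 1.34 and 14.7 times the untreated mean.

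Srxn1 encodes sulfiredoxin, which restores over-oxidized peroxiredoxins. Its TPM in wild-type cells was 46.6, 49.9 and 45.5 untreated, 104, 95.7 and 98.2 with oleic acid, and 209, 219.5 and 239 with palmitic acid. In knockout cells it was 51.6, 52.1 and 50.9 untreated, 65.2, 75.1 and 74.9 with oleic acid, and 297, 306.5 and 297 with palmitic acid. No 2 of these groups within a genotype overlapped, and palmitic acid was above oleic acid in both genotypes. The rises with oleic acid were 1.05 ± 0.06 (limma, adjusted p = 7.4e-12) in wild-type and 0.47 ± 0.06 (limma, adjusted p = 7.3e-06) in knockout cells. The rises with palmitic acid were 2.21 ± 0.06 (limma, adjusted p = 2.1e-17) and 2.52 ± 0.06 (limma, adjusted p = 7.1e-19).

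Txnrd1 encodes cytosolic thioredoxin reductase, which returns thioredoxin to its reduced form. It was 158, 172 and 168 TPM in untreated wild-type cells, 206, 184 and 206 with oleic acid, and 697, 751 and 801.5 with palmitic acid. In knockout cells it was 122, 118 and 122 TPM untreated, 136, 149.7 and 142 with oleic acid, and 255, 324 and 311 with palmitic acid. Palmitic acid groups stood above all others in each genotype, but the knockout group was well below the wild-type group. Txnrd1 rose with palmitic acid by 2.17 ± 0.07 (limma, adjusted p = 2.1e-16) in wild-type cells and 1.29 ± 0.07 (limma, adjusted p = 5.3e-13) in knockout cells. It rose with oleic acid by 0.26 ± 0.07 (limma, adjusted p = 0.0035) and 0.24 ± 0.07 (limma, adjusted p = 0.0098).

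Nqo1 encodes a quinone reductase that is among the best known NRF2 targets. In wild-type cells it was 15.1, 17.7 and 13.8 TPM untreated, 12.01, 11.2 and 12.5 with oleic acid, and 39.7, 46.7 and 48.4 with palmitic acid. It therefore lay below the untreated libraries with oleic acid (log2 change -0.35 ± 0.10, limma, adjusted p = 0.005) and above them with palmitic acid (1.47 ± 0.10, limma, adjusted p = 4.3e-11). In knockout cells it was 19.1, 17.7 and 18.3 TPM untreated, 19.4, 23.2 and 23.5 with oleic acid, and 21.9, 20.8 and 24.1 with palmitic acid. The 2 acid groups overlapped each other there, and the log2 changes were 0.25 ± 0.10 (limma, adjusted p = 0.054) with oleic acid and 0.27 ± 0.10 (limma, adjusted p = 0.022) with palmitic acid. The latter became 0.81 under median-ratio scaling (limma, adjusted p = 2.3e-06), and in TPM it no longer passed without knockout palmitic acid 3 or without untreated knockout 2.

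Gclm and Gclc encode the modifier and catalytic subunits of glutamate-cysteine ligase, the first enzyme of glutathione synthesis. Gclm was 79.3, 76.4 and 83.4 TPM in untreated wild-type cells, 155, 171 and 176 with palmitic acid, 71.0, 67.4 and 70.9 in untreated knockout cells, and 130.3, 149.8 and 147.5 with palmitic acid. The palmitic acid groups lay above the untreated groups without overlap, with rises of 1.06 ± 0.07 (limma, adjusted p = 2.5e-11) and 1.02 ± 0.07 (limma, adjusted p = 3.1e-11), the latter 1.58 under median-ratio scaling. With oleic acid Gclm was 77.0 to 91.8 TPM in wild-type cells, where it overlapped the untreated libraries, and 79.6 to 85.4 in knockout cells. The latter was a rise of 0.23 ± 0.07 (limma, adjusted p = 0.015), lost without knockout oleic acid 2 or untreated knockout 2.

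Gclc went the other way from its partner subunit in wild-type cells. It was 67.0, 67.1 and 75.2 TPM untreated, 49.7, 40.8 and 47.4 with oleic acid, and 44.1, 44.8 and 41.8 with palmitic acid. Both acid groups lay below the untreated libraries and overlapped each other, and the log2 changes were -0.59 ± 0.09 (limma, adjusted p = 6.1e-06) and -0.66 ± 0.09 (limma, adjusted p = 1.0e-06). In knockout cells Gclc was 47.4, 47.4 and 49.1 TPM untreated, 46.3 to 50.7 with oleic acid and 38.9 to 54.6 with palmitic acid, and neither change passed the test in TPM. Under median-ratio scaling Gclc of knockout cells was higher with palmitic acid, by 0.52 ± 0.05 (limma, adjusted p = 9.1e-09).

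Osgin1, which encodes an oxidative stress-induced growth inhibitor, had the lowest mean of the 10 genes in untreated cultures. It was 12.9, 14.2 and 12.7 TPM in untreated wild-type cells and 39.4, 31.6 and 34.7 with palmitic acid, and 16.0, 13.8 and 16.6 TPM in untreated knockout cells and 27.6, 26.9 and 26.6 with palmitic acid. Both palmitic acid groups lay above all other libraries of their genotype, with rises of 1.34 ± 0.11 (limma, adjusted p = 9.6e-10) and 0.77 ± 0.11 (limma, adjusted p = 2.5e-06), the latter 1.31 under median-ratio scaling. With oleic acid it was 11.6 to 14.6 TPM in wild-type and 11.2 to 14.5 in knockout cells, and it did not pass the test in either.

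The metallothioneins were the most abundant of the 10 genes in untreated wild-type cells. Mt1 was 1714, 1901 and 2010.1 TPM in those cells, 2694, 3064 and 2646 with oleic acid, and 636, 636 and 701 with palmitic acid. Mt2 was 2444, 2539.5 and 2809 TPM untreated, 2420.5, 2299.6 and 2370.4 with oleic acid, and 787, 783 and 847 with palmitic acid. Oleic acid libraries were above the untreated ones for Mt1 and just below them for Mt2, and palmitic acid libraries were the lowest for both. Mt1 rose with oleic acid by 0.58 ± 0.07 (limma, adjusted p = 4.2e-07), and Mt2, with a lower mean, did not pass the test. With palmitic acid the log2 changes were -1.51 ± 0.07 (limma, adjusted p = 6.0e-14) for Mt1 and -1.69 ± 0.07 (limma, adjusted p = 5.1e-15) for Mt2, 2.85 and 3.22 times below the untreated mean. All 9 astrocyte markers were lower with palmitic acid as well (median log2 change -0.99), and their part in the metallothionein change was not tested.

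Untreated knockout cells already had low metallothionein levels, which each treatment raised. Mt1 was 663, 668 and 719.6 TPM in untreated knockout cells, 2091, 2077 and 2124 with oleic acid, and 1034, 1067 and 1028 with palmitic acid. Mt2 was 872, 848 and 866.5 TPM untreated, 2679.7, 2309.8 and 2455 with oleic acid, and 1240.2, 1111 and 1125 with palmitic acid. No 2 of these groups overlapped, and the oleic acid libraries were the highest. Mt1 rose by 1.62 ± 0.07 (limma, adjusted p = 2.0e-12) with oleic acid and 0.61 ± 0.07 (limma, adjusted p = 8.9e-08) with palmitic acid, and Mt2 by 1.52 ± 0.07 (limma, adjusted p = 2.0e-12) and 0.42 ± 0.07 (limma, adjusted p = 7.6e-06). Under median-ratio scaling the palmitic acid rises were 1.17 for Mt1 and 0.98 for Mt2. Ranked from the highest log2 change with oleic acid among 16161 genes, Mt1 was number 37, Txnip 47 and Mt2 49. All 9 astrocyte markers were lower with palmitic acid in knockout cells (median -1.84, and 8 lower after scaling), where the metallothioneins rose.

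Before any treatment, 7 of the 10 genes differed between knockout and wild-type astrocytes, against 44.9% of all genes tested. Hmox1 was higher by 0.42 ± 0.10 (limma, adjusted p = 0.0013). Mt1 (-1.45 ± 0.07, limma, adjusted p = 1.6e-13), Mt2 (-1.59 ± 0.07, limma, adjusted p = 1.8e-14), Txnip (-0.61 ± 0.09, limma, adjusted p = 9.1e-06), Gclc (-0.53 ± 0.09, limma, adjusted p = 3.4e-05), Txnrd1 (-0.46 ± 0.07, limma, adjusted p = 1.3e-05) and Gclm were lower in knockout cells. Of these, Gclm (-0.19 ± 0.07, limma, adjusted p = 0.033) lost the call when any of the 3 knockout libraries, or untreated wild-type 1 or 3, was left out. All 9 astrocyte markers were lower in the untreated knockout cells (median log2 change -1.58), and their part in the metallothionein difference was not tested.

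Txnip levels differed between the fatty acids in both genotypes. In wild-type cells it was 236, 246 and 267 TPM untreated, 460.2, 509.5 and 506 with oleic acid, and 256, 213 and 213 with palmitic acid. In knockout cells it was 167, 155 and 166.5 TPM untreated, 445, 487 and 499.6 with oleic acid, and 62.5, 72.3 and 69.7 with palmitic acid. Oleic acid libraries of the genotypes overlapped each other and lay above all others, and knockout palmitic acid libraries lay below all others. Txnip rose with oleic acid by 0.98 ± 0.09 (limma, adjusted p = 1.1e-08) in wild-type cells and 1.54 ± 0.09 (limma, adjusted p = 3.3e-10) in knockout cells. With palmitic acid it overlapped the untreated libraries in wild-type cells, without passing the test, and changed by -1.25 ± 0.09 (limma, adjusted p = 7.8e-11) in knockout cells, or -0.69 under median-ratio scaling. Microglia markers moved as well: 7 of 12 were higher and 3 lower with oleic acid in wild-type cells (summed TPM 508 to 558 untreated, 939 to 1052 with oleic acid), and in knockout cells 10 were higher with oleic acid (427 to 459 untreated, 1183 to 1279.9) and all 12 lower with palmitic acid (10 after scaling; 108 to 119, with P2ry12 at 0). With palmitic acid in wild-type cells 8 were higher and 3 lower (998 to 1118), where Txnip did not pass. Of all genes tested, 59.8% passed with either acid in wild-type cells. In knockout cells 41.8% passed with oleic acid and 75.3% with palmitic acid. The part of the microglia markers in the Txnip changes was not tested.

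**Figure D2:**
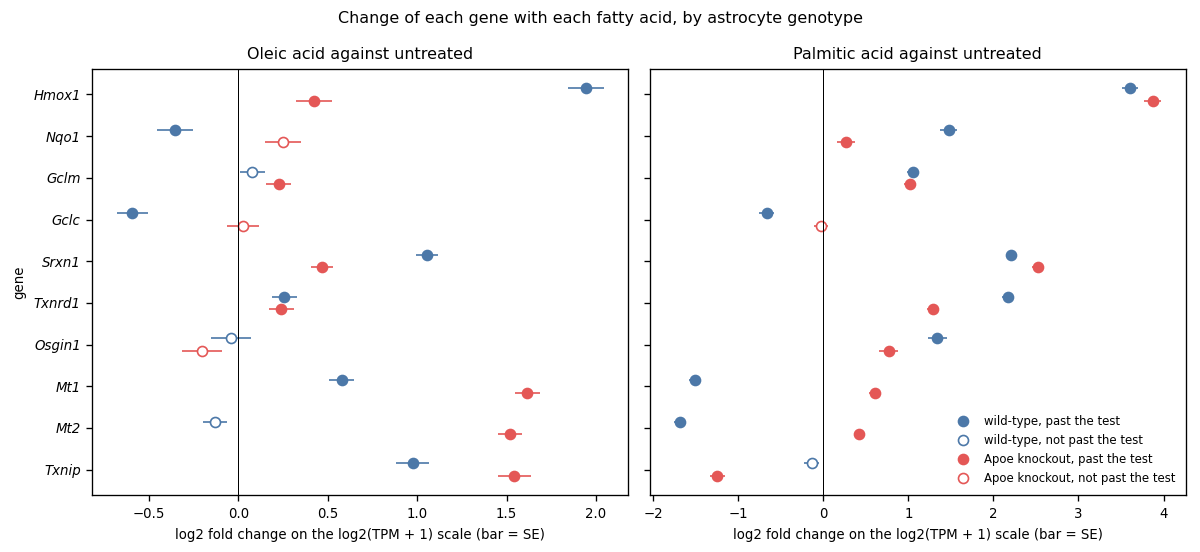
Log2 fold change of each of the 10 genes against untreated cells of the same genotype, on the log2(TPM + 1) scale, with oleic acid in the left panel and palmitic acid in the right, blue for wild-type and red for Apoe knockout, bars of 1 SE and filled points where the adjusted p was under 0.05. Hmox1 lies near 2 with oleic acid in wild-type cells and near 0.4 in knockout cells, and Mt1 and Mt2 lie on opposite sides of 0 in the genotypes with palmitic acid.

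Palmitic acid, a saturated fatty acid, and oleic acid, which has a double bond, were also compared directly, although it is not known whether their doses and times matched. In wild-type cells 9 of the 10 genes differed between the acids, against 58.2% of all genes. Palmitic acid was higher for Hmox1 (1.66 ± 0.10), Nqo1 (1.83 ± 0.10), Gclm (0.98 ± 0.07), Srxn1 (1.16 ± 0.06), Txnrd1 (1.91 ± 0.07) and Osgin1 (1.38 ± 0.11), and lower for Mt1 (-2.09 ± 0.07), Mt2 (-1.55 ± 0.07) and Txnip (-1.11 ± 0.09), with a highest limma adjusted p of 9.2e-10. The Gclc difference did not pass the test, with a 95% interval of -0.25 to 0.11. In knockout cells 8 of the 10 differed, against 69.7%, and directions were as in wild-type cells. The differences were 3.45 ± 0.10 for Hmox1, 2.05 ± 0.06 for Srxn1, 1.04 ± 0.07 for Txnrd1, 0.97 ± 0.11 for Osgin1, 0.79 ± 0.07 for Gclm, -1.01 ± 0.07 for Mt1, -1.10 ± 0.07 for Mt2 and -2.79 ± 0.09 for Txnip, with a highest limma adjusted p of 1.1e-07. Median-ratio scaling moved the median of all genes here from -0.41 to -0.04 and the share of higher calls from 22.9% to 49.9%. The differences were then 1.32 for Gclm, 1.57 for Txnrd1, 1.48 for Osgin1, -0.48 for Mt1 and -0.57 for Mt2. Nqo1 and Gclc of knockout cells did not pass in TPM (95% intervals of -0.19 to 0.23 and -0.23 to 0.13) but were higher with palmitic acid after that scaling, by 0.52 (limma, adjusted p = 0.00046) and 0.46 (limma, adjusted p = 7.1e-08).

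Whether a treatment's change differed between knockout and wild-type cells was tested with the interaction of genotype and treatment. A positive term means a more positive change in knockout cells, and genotype cannot be told apart here from the make-up of the cultures. The oleic acid term passed for 7 of the 10 genes, against 29.6% of all genes. It was negative for Hmox1 (-1.52 ± 0.14, limma, adjusted p = 2.9e-08) and Srxn1 (-0.59 ± 0.09, limma, adjusted p = 2.2e-05), and positive for Mt1 (1.04 ± 0.10), Mt2 (1.66 ± 0.09), Nqo1 (0.60 ± 0.14), Gclc (0.62 ± 0.12) and Txnip (0.57 ± 0.13), with a highest limma adjusted p of 0.0027 for Nqo1. The Hmox1 rise with oleic acid was thus smaller in knockout cells and the Mt1 rise larger, and Mt2 rose in knockout cells only, where wild-type cells had a lower mean without passing.

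The palmitic acid term passed for 8 of the 10, against 57.6% of all genes. It was positive for Mt1 (2.12 ± 0.10, limma, adjusted p = 1.8e-13), Mt2 (2.11 ± 0.09, limma, adjusted p = 1.0e-13), Gclc (0.64 ± 0.12) and Srxn1 (0.31 ± 0.09), and negative for Nqo1 (-1.21 ± 0.14), Txnip (-1.11 ± 0.13), Txnrd1 (-0.88 ± 0.10) and Osgin1 (-0.57 ± 0.16), with a highest limma adjusted p of 0.0045 for Srxn1. Median-ratio scaling moved the median of this term over all genes from -0.35 to 0.03 and the share of positive calls from 24.9% to 52.1%. The terms were then 2.60 for Mt1, 2.59 for Mt2, 1.11 for Gclc, 0.79 for Srxn1, -0.74 for Nqo1, -0.63 for Txnip and -0.40 for Txnrd1, all past the test, and -0.10 for Osgin1 (limma, adjusted p = 0.67), which was lost. The Hmox1 term was 0.27 ± 0.14 in TPM (limma, adjusted p = 0.11, 95% interval -0.02 to 0.56) and 0.75 after scaling (limma, adjusted p = 0.0022). The Gclm term did not pass in TPM (limma, adjusted p = 0.75) and was 0.44 after scaling (limma, adjusted p = 0.0017).

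Conditioned medium of neurons changed none of the 10 genes past the test in wild-type cells, against 0.0371% of all genes. Of all 16161 genes 1031 had an unadjusted p under 0.05, as had 3 of the 10. The 3 were Mt1 (0.21 ± 0.07, limma, adjusted p = 0.50), Mt2 (0.17 ± 0.07, limma, adjusted p = 0.62) and Srxn1 (0.14 ± 0.06, limma, adjusted p = 0.77), and their libraries overlapped the untreated ones. In knockout cells 7 of the 10 changed, against 31.2%. Mt1 rose from 663 to 719.6 TPM in the untreated libraries to 1574, 1580.0 and 1647, by 1.23 ± 0.07 (limma, adjusted p = 1.1e-11), and Mt2 to 2051, 2081 and 2287, by 1.31 ± 0.07 (limma, adjusted p = 2.1e-12). Hmox1 went down to 151, 148 and 138 TPM, a change of -0.63 ± 0.10 (limma, adjusted p = 3.6e-05), with Osgin1 (-0.46 ± 0.11), Srxn1 (-0.30 ± 0.06) and Gclm (-0.21 ± 0.07) also lower and Txnip (0.31 ± 0.09) higher, with a highest limma adjusted p of 0.029 for Gclm. Gclc (0.19 ± 0.09) did not pass in TPM (limma, adjusted p = 0.12) and did after scaling (limma, adjusted p = 0.04), and Nqo1 (-0.23 ± 0.10) did not pass (limma, adjusted p = 0.09). Of the calls, Gclm lost its own without knockout medium 1 or 3 or untreated knockout 1 or 3, and Txnip without knockout medium 3 or untreated knockout 2. All 9 astrocyte markers were also higher with medium in knockout cells (median 1.03), and their part in these changes was not tested. The genotype term for this medium passed for 5 of the 10, against 18.5%: Mt1 (1.02 ± 0.10), Mt2 (1.14 ± 0.09), Txnip (0.45 ± 0.13), Hmox1 (-0.60 ± 0.14) and Srxn1 (-0.44 ± 0.09), with a highest limma adjusted p of 0.017 for Txnip. The Txnip term lost the call without knockout medium 3, wild-type medium 3 or untreated wild-type 3.

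Medium of APOE KO neurons was compared with medium of normal neurons on wild-type astrocytes. Hmox1 was the only member past the test, 1 of 10 against 1.42% of all genes. It was 281, 243 and 207 TPM with the knockout neurons' medium and 147, 193 and 156 with normal medium, which did not overlap, a rise of 0.56 ± 0.10 (limma, adjusted p = 0.0042). A fit of only those 6 libraries ended the call (limma, adjusted p = 0.11). Blvrb (0.59 ± 0.12, limma, adjusted p = 0.015), which encodes a biliverdin reductase, rose as well. So did the ferritin subunits Ftl1 (0.40 ± 0.07, limma, adjusted p = 0.0049) and Fth1 (0.29 ± 0.07, limma, adjusted p = 0.033), making 3 of 24 other NRF2 targets. Under median-ratio scaling none of the 24 passed, while Hmox1 did (limma, adjusted p = 0.042).

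Across the 9 culture groups, the order of the mean levels differed between genes. For Hmox1 it was knockout palmitic acid (3310.3 TPM), wild-type palmitic acid (2059), wild-type oleic acid (647), knockout oleic acid (302), knockout neurons' medium (244), untreated knockout (225), untreated wild type (167), wild-type neuronal medium (165) and knockout neuronal medium (145). The neighbours from 244 to 225 and from 167 to 145 TPM overlapped. The 4 highest groups of Srxn1 were these same groups in this order, none overlapping its neighbour. In TPM, Txnrd1, Nqo1, Gclm and Osgin1 were instead highest in wild-type cells with palmitic acid, and Gclc in wild-type cells with neuronal medium. For Gclm and Osgin1 that place depended on the scale. Under median-ratio scaling Gclm rose with palmitic acid by 1.14 in wild-type and 1.58 in knockout cells, whose untreated change from wild type was -0.23. The same values for Osgin1 were 1.41, 1.31 and 0.17. For Txnip the order was wild-type oleic acid (492) and knockout oleic acid (477), then untreated wild type (249.8), knockout neurons' medium (249.6), wild-type palmitic acid (228), wild-type neuronal medium (227) and knockout neuronal medium (202), then untreated knockout (163) and knockout palmitic acid (68.2), and neighbours overlapped from 492 to 477 and from 249.8 to 202. Mt2 was highest in wild-type cells with the medium of knockout neurons (3002 TPM) and lowest in wild-type cells with palmitic acid (806). Its 5 highest groups overlapped from neighbour to neighbour. The lowest place depended on the scale. Under median-ratio scaling the Mt2 change from untreated wild type was -1.61 with palmitic acid in wild-type cells and -1.63 in untreated knockout cells.

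Other genes of the same pathways moved in mixed directions. Of 24 other NRF2 targets, 14 rose and 4 fell with palmitic acid in wild-type cells (median 0.63 against -0.08 for all genes, of which 59.8% passed). Among them were Slc7a11 (3.27), the cystine transporter, Sqstm1 (2.27), an autophagy receptor, and Akr1b8 (1.95), an aldo-keto reductase. In knockout cells 17 rose and 5 fell (median 0.77 against -0.47, with 75.3% of all genes past the test), with Sqstm1 at 3.07 and the glutathione transferases Gstm1 at -1.59 and Gsta4 at -1.47. Under median-ratio scaling 20 rose and 3 fell, and Gstm1 was -1.03 and Gsta4 -0.93. Oleic acid raised 14 and lowered 7 in wild-type cells and raised 16 and lowered 3 in knockout cells (medians 0.33 and 0.36 against 0.00 and -0.03 for all genes, of which 59.8% and 41.8% passed). Of 16 other antioxidant enzymes such as peroxidases and dismutases, oleic acid raised 11 and lowered 1 in wild-type cells and raised 13 in knockout cells, with medians of 0.37 and 0.34. Palmitic acid raised 6 and lowered 2 in wild-type cells (median 0.13) and raised 8 and lowered 3 in knockout cells (median 0.10), the latter 14 and 1 after scaling. Of all genes, 59.8% and 41.8% passed with oleic acid in wild-type and knockout cells. With palmitic acid 59.8% and 75.3% passed, with medians of -0.08 and -0.47.

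Nfe2l2 itself, the NRF2 gene, did not rise with either fatty acid. It was 241.2 ± 5.6 TPM (SD, n = 3) in untreated wild-type cells, 214 ± 11.0 with palmitic acid and 180.0 ± 23.2 with oleic acid, the latter a change of -0.43 ± 0.09 (limma, adjusted p = 0.00031). In knockout cells it was 122.6 ± 2.9 untreated, a change of -0.97 ± 0.09 from wild type (limma, adjusted p = 8.0e-09), and 72.4 ± 11.5 with palmitic acid, a further change of -0.76 ± 0.09 (limma, adjusted p = 1.2e-07), or -0.21 under median-ratio scaling (limma, adjusted p = 0.0026). Maff, which encodes a small partner of NRF2, rose with palmitic acid by 1.12 ± 0.07 (limma, adjusted p = 1.1e-11) in wild-type and 0.97 ± 0.07 (limma, adjusted p = 8.3e-11) in knockout cells, the latter 1.52 under that scaling. In all, 3 of 8 NRF2 regulators rose and none fell with palmitic acid in wild-type cells, and 5 rose and 3 fell in knockout cells. The 3 of 8 in wild-type cells is a smaller share than the 59.8% of all genes that passed there. In knockout cells 75.3% of all genes passed with palmitic acid. Genes of the integrated stress response, an arm of translation control, rose with palmitic acid in 9 of 10 cases in wild-type cells (1 fell, median 3.08) and in 10 of 10 in knockout cells (median 2.29).

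Mt3, the metallothionein best known from brain, matched Mt1 and Mt2 in some comparisons only. It changed by -1.95 ± 0.08 (limma, adjusted p = 7.5e-15) between untreated knockout and wild-type cells, by -1.14 ± 0.08 (limma, adjusted p = 3.9e-11) with palmitic acid in wild-type cells, and by 0.87 ± 0.08 (limma, adjusted p = 7.0e-08) with oleic acid and 1.41 ± 0.08 (limma, adjusted p = 7.3e-12) with neuronal medium in knockout cells, all in the direction of Mt2. With palmitic acid in knockout cells it changed by -2.35 ± 0.08 (limma, adjusted p = 1.1e-16), from 819 ± 50.8 to 161 ± 22.2 TPM (SD, n = 3), while Mt1 and Mt2 rose. Slc30a1, a zinc exporter gene that MTF1 is known to drive, changed there by -1.14 ± 0.13 (limma, adjusted p = 1.1e-07), or -0.65 under median-ratio scaling, and in all 1 of 5 tested genes of zinc and metal response rose and 4 fell (3 after scaling), where 75.3% of all genes passed.

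Arrdc4, a close relative of Txnip that Mondo factors also drive, did not follow Txnip in wild-type cells. It was 18.6 ± 0.96 TPM (SD, n = 3) untreated, 20.4 ± 1.94 with oleic acid and 44.8 ± 1.37 with palmitic acid, a rise of 1.23 ± 0.10 with palmitic acid (limma, adjusted p = 9.3e-10), where Txnip did not pass. In knockout cells it was 17.5 ± 1.37 TPM untreated, 21.8 ± 1.25 with oleic acid and 8.88 ± 1.79 with palmitic acid, with changes of 0.30 ± 0.10 (limma, adjusted p = 0.022) and -0.92 ± 0.10 (limma, adjusted p = 5.4e-08), the latter -0.41 under median-ratio scaling, and both in the direction of Txnip. Of 5 tested arrestin-domain and Mondo genes, 2 rose and 1 fell with palmitic acid in wild-type cells and 2 rose and 3 fell (2 after scaling) in knockout cells, against 59.8% and 75.3% of all genes past the test.

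Over the 27 culture libraries, the genes most alike to Hmox1 in log2(TPM + 1) by Pearson correlation were Cct7 (0.984), Atf3 (0.983), Eif1 (0.977), Oser1 (0.976) and Tomm5 (0.975). Those most alike to Mt2 were Pink1 (0.981), Tprgl (0.941), Rhbdl3 (0.934), Sirt2 (0.927) and H2bc4 (0.922). Those alike to Txnip included Ctsb (0.961), Lgmn (0.95), Cebpzos (0.948) and Sdhd (0.947). These coefficients describe 27 libraries in 9 groups that share their treatments.

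In brain, the metallothioneins were again the most abundant of the 10 genes and Osgin1 the rarest. CNO raised 2 of the 9 members tested, Mt2 and Mt1, against 3.7% of 15453 genes, and the median log2 change of the 9 was 0.21 against 0.04 for all genes. Osgin1, at 0.44 to 1.14 TPM, did not pass the filter on low values. Mt2 was 442, 477 and 495 TPM in untreated and 1013, 983 and 1035 TPM in CNO brains. Mt1 was 719.9, 769.6 and 834.5 TPM in untreated and 1322, 1170.5 and 1118 in CNO brains. Neither gene's groups overlapped. Mt2 rose by 1.10 ± 0.08 (limma, adjusted p = 0.00097), 2.14 times in mean TPM, and Mt1 by 0.63 ± 0.10 (limma, adjusted p = 0.014), 1.55 times. The Mt1 call was lost without CNO 2 (limma, adjusted p = 0.057), without untreated 2 (limma, adjusted p = 0.052) and with no filter on low values (limma, adjusted p = 0.072).

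Hmox1 was 8.13, 6.68 and 6.81 TPM in the untreated brains of the CNO set and 13.4, 16.1 and 32.8 in the CNO brains, also without overlap. The third CNO library was higher than the others, and the log2 change was 1.31 ± 0.30 (limma, adjusted p = 0.058). With the replicate number as a block, Hmox1 passed (limma, adjusted p = 0.04) and 3 members were called. That pairing was read from these same data, where deviations of same-numbered libraries correlated at only 0.244, 0.232 and 0.119. Hmox1 also passed without CNO 1, at 1.55 (limma, adjusted p = 0.03). Srxn1 (92.9 to 105 TPM with CNO and 65.4 to 90.3 without, 0.36 ± 0.12) did not pass (limma, adjusted p = 0.20). Nfe2l2 rose by 0.63 ± 0.13 (limma, adjusted p = 0.041), as did 3 of 24 other NRF2 targets, with Akr1b8 at 2.09 ± 0.18 (limma, adjusted p = 0.0016). Astrocyte markers summed to 1892 to 2141 TPM in untreated and 4080.4 to 4256 in CNO brains, with 4 of 9 past the test, and microglia markers to 553 to 638 and 1435 to 1804, with 12 of 12. No marker of either list was at 0, and their part in the metallothionein rise was not tested.

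**Figure D3:**
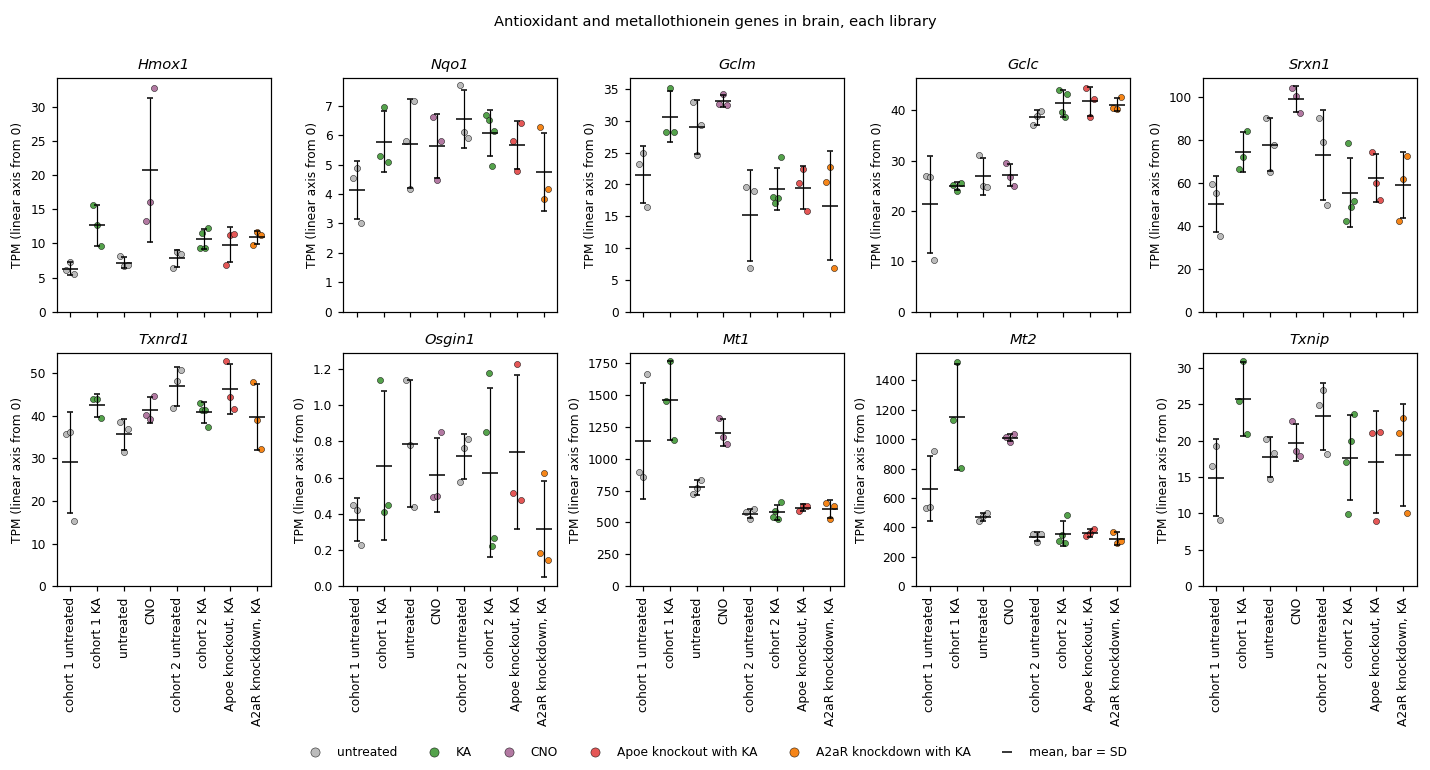
Level of each of the 10 genes in every brain library, in TPM on linear axes that start at 0, with 1 panel per gene, points coloured by treatment, a horizontal line at each group's mean and a bar of 1 SD (n = 3, or 4 for KA in the second cohort). Mt1 and Mt2 separate CNO from untreated brain without overlap, and KA overlaps untreated brain for both in the second cohort.

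With KA in the first cohort none of the 9 members tested passed the test, against 0.183% of 15331 genes. Of the 15331 genes 2069 had an unadjusted p under 0.05, as had 4 of the 9 members. The 4 were Hmox1 (0.88 ± 0.24, limma, adjusted p = 0.18), Mt2 (0.80 ± 0.31, limma, adjusted p = 0.33), Txnip (0.79 ± 0.30, limma, adjusted p = 0.33) and Srxn1 (0.59 ± 0.23, limma, adjusted p = 0.34). Hmox1 was 6.14, 7.31 and 5.54 TPM in untreated and 15.6, 12.7 and 9.59 in KA brains, and Txnip 16.5, 19.3 and 9.07 and 25.5, 31.0 and 20.9, neither with overlap. Mt2 overlapped, at 531, 539 and 922 TPM untreated and 1128, 1525 and 803 with KA, as did Mt1 at 857 to 1663 and 1147 to 1768. Median-ratio scaling moved the median of all genes from 0.25 to -0.02, after which Mt2 was 0.49, Txnip 0.51 and Srxn1 0.29. The share of called genes that were higher moved from 85.7% to 75% with it.

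The third untreated library of this cohort stood apart. Its mitochondrial transcripts made up 9.01% of TPM, against 15.9% and 16.2% in the other untreated libraries, and it had the highest Mt1 (1663 TPM) and Mt2 (922) and the lowest Txnrd1 (15.3 against 35.6 and 36.2), Gclc (10.2 against 26.99 and 26.8) and Txnip of its group. Without it the changes were 0.80 for Hmox1 (limma, adjusted p = 0.093), 1.06 for Mt2 (limma, adjusted p = 0.08), 0.49 for Txnip (limma, adjusted p = 0.17) and 0.36 for Srxn1 (limma, adjusted p = 0.14). Microglia markers summed to 612 to 733 TPM in untreated and 1594 to 4012 in KA brains. All 12 had an unadjusted p under 0.05 though none passed, where 2069 of 15331 genes had such a p. Choroid plexus markers summed to 189.7 to 1389.6 and 1863 to 2733 TPM (6 of 7 at that p), and astrocyte markers to 1382 to 1934.5 and 2375 to 3967.5 (5 of 9). Their part in the changes of the members was not tested.

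In the second KA cohort, counts were tested with edgeR's quasi-likelihood test over 23318 genes. None of the 10 members passed with KA, against 0.0558% of all genes. Of the members, Hmox1 alone had an unadjusted p under 0.05 (0.47 ± 0.21, edgeR, adjusted p = 0.72), where 1566 of the 23318 genes had. Hmox1 was 6.38, 8.71 and 8.44 TPM in untreated and 9.33, 11.5, 9.37 and 12.3 in KA brains, which did not overlap, while microglia markers summed to 527.5 to 614 and 677 to 1157 TPM. Mt1 was 528 to 602 TPM untreated and 527 to 659 with KA, and Mt2 301 to 355 and 294 to 481, which did. None of the 10 members passed for APOE knock out with KA against KA (0.112% of all genes) or for A2aR knock down with KA against KA (0.0386%). No member had an unadjusted p under 0.05 in either of these, where 2175 and 2156 of the 23318 genes had. DESeq2 called none in the 3 comparisons of this cohort. With the Apoe knockout, Mt1 was 587 to 633 TPM, Mt2 339 to 389.9 and Hmox1 6.89 to 11.4, and with the knockdown Mt1 was 525.9 to 656, Mt2 295 to 372 and Hmox1 9.82 to 11.6, all overlapping KA brain. Gclm was low in untreated 2 (6.94 TPM) and in A2aR knock down 6 (6.82), against 15.8 to 24.3 in the other libraries of the cohort, and Txnip was low in KA 2 (9.96), APOE knock out 2 (8.94) and A2aR knock down 6 (10.1), against 17.0 to 26.99 in the others.

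The balance of the metallothioneins differed between brain and culture tables, which were processed separately. Mt2 TPM divided by Mt1 TPM was 0.554 to 0.629 in untreated brain of the first cohort and 0.593 to 0.619 in untreated brain of the CNO set. In the second cohort it was 0.570 to 0.614 in untreated brain and 0.484 to 0.731 over all groups. It was 1.34 to 1.43 in untreated wild-type astrocytes. The ratio was 0.70 to 0.863 with KA in the first cohort and 0.767 to 0.926 with CNO, above the untreated brains of the same table without overlap. With KA in the second cohort it was 0.559 to 0.731, which overlapped the untreated brains of that cohort. Among cultures, oleic acid on wild-type cells stood alone with more Mt1 than Mt2, at 0.751 to 0.899, whereas knockout cells with oleic acid had 1.11 to 1.28. For the first-cohort KA, CNO and wild-type oleic acid groups against their untreated groups, a two-sided exact permutation test gave p = 0.1. That is the smallest that 3 against 3 libraries allow, and it was 0.2143 after adjustment over 15 pairs. The same values came from wild-type palmitic acid against untreated and against oleic acid, knockout palmitic acid against untreated, and untreated knockout against wild type.

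**Figure D4:**
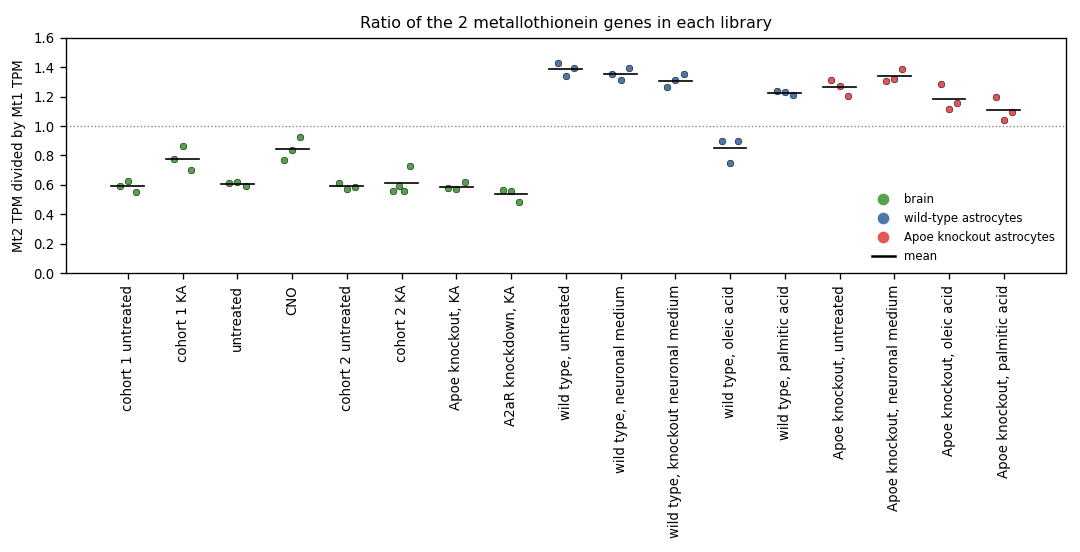
Mt2 TPM divided by Mt1 TPM in every library, on a linear axis from 0, with green points for brain, blue for wild-type and red for Apoe knockout astrocytes, a short line at each group's mean and a dotted line at a ratio of 1. Brain libraries lie below 1, and all culture libraries lie above it except those of wild-type cells with oleic acid.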

How the data were processed

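Per the labels' protocols, RNA was taken with Trizol and made into libraries with an Illumina TruSeq kit. HISAT2, StringTie, RSEM and mm10 are named in the submitters' processing notes, without versions or roles. The authors deposited TPM values in 4 tables, made separately, and raw counts per gene for the second KA cohort. Where no header states the unit, TPM was read from the column totals (978247 to 995102).

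From these, TPM tables were tested with limma 3.58.1 (trend) on log2(TPM + 1) in R 4.3.3, over genes with at least 1 TPM in at least 3 libraries, all groups of a table sharing the spread. Counts were tested with edgeR 4.0.16 (quasi-likelihood, TMM, filterByExpr), with DESeq2 1.42.0 as an alternative. P-values were adjusted by Benjamini-Hochberg over all genes tested, with a threshold of 0.05, and intervals are at 95%. The scripts were tested on simulated data.

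The members and the 16 gene lists were chosen with earlier results of these data known. All 10 members are named, with a log2 change where the unadjusted p was under 0.05, and of each list up to 4 genes with the smallest p past the threshold; genes named from lists for contrast in other comparisons (Arrdc4, Nfe2l2, Mt3, Slc30a1, Maff, Slc7a11) were chosen after their values were seen. The 5 genes most alike were taken by Pearson correlation, leaving out members and predicted genes; 1 of those for Txnip is not reported here. Replicate numbers were taken to pair libraries only in the CNO set, where the deviations of same-numbered libraries correlated at 0.244, 0.232 and 0.119; its blocked value is given where it changes a call. Alternatives were leaving out each library, the replicate block, median-ratio scaling, no filter on low values, a pseudocount of 0.1, only the groups compared, and DESeq2.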

Additional observations from a re-analysis of the deposited data

Results flagged for a closer look

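The change with a treatment differed between knockout and wild-type cells in 20 of 30 tests of members (limma interaction terms, knockout minus wild type, log2 scale). These were 5, 7 and 8 of 10 for neuronal medium, oleic acid and palmitic acid, where 18.5%, 29.6% and 57.6% of all genes passed. Under median-ratio scaling 21 passed: the Osgin1 term for palmitic acid was lost, and those of Hmox1 and Gclm were gained. The Txnip term for medium was lost when any of knockout medium 3, wild-type medium 3 or untreated wild-type 3 was left out. For neuronal medium the terms were Hmox1 -0.60, Srxn1 -0.44, Mt1 1.02, Mt2 1.14 and Txnip 0.45. For oleic acid they were Hmox1 -1.52, Nqo1 0.60, Gclc 0.62, Srxn1 -0.59, Mt1 1.04, Mt2 1.66 and Txnip 0.57. For palmitic acid they were Nqo1 -1.21, Gclc 0.64, Srxn1 0.31, Txnrd1 -0.88, Osgin1 -0.57, Mt1 2.12, Mt2 2.11 and Txnip -1.11. The 3 terms of a gene share the untreated libraries, and genotype cannot be told apart from the make-up of the cultures. Mt1 and Mt2 had positive terms for all 3 treatments, and their untreated knockout levels, which enter each term, were low.

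Gclm in KA brain of the second cohort had 1 library, at 24.25 TPM, far from the other 3 (17.1 to 18.1). The 10 tests were of the 10 genes in these same 4 libraries, since groups of 3 were not tested. This was the only such value among them, and chance gives about 1 in 20 in each test.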

How the results depend on the processing

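Of 102 member values recomputed under the alternatives, 86 were called and 77 of those kept the call under every alternative run; 9 lost it under at least 1, 5 uncalled values gained it, and none reversed. These are values with an unadjusted p under 0.05; median-ratio scaling called 5 more outside them (Gclc with palmitic acid, and Gclc and Nqo1 between the acids, in knockout cells, and the palmitic acid terms of Hmox1 and Gclm). With CNO, 2 members were called; the number was 1 with no filter on low values, and leaving out 1 library gave 1 to 2, with 1 without CNO 2 and without untreated 2. With the replicate block it was 3, Hmox1 being added. For the medium of knockout against normal neurons, the 1 member called became 0 when only the groups compared were fitted. Outside the CNO set same-numbered libraries share only a number; the block gave 8 called members in place of 7 for oleic acid in knockout cells, adding Nqo1 (limma, adjusted p = 0.05), and the main number elsewhere. For A2aR knock down against KA brain no paired analysis was possible because those groups share a single number. The depth of the 3 tables without counts is unknown, and Osgin1, with 12 to 88 counts in the second KA cohort, is the least precise member there. Doses, culture make-up and sex limit the comparisons as stated beside them.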
